A study of Mus musculus with 8 samples.

Results

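Proteases of the skin are held in check by several families of inhibitors, and 8 of these inhibitor genes are described here in mouse epidermis after a topical glucocorticoid. They are the serpin Serpina3n, the Kazal-type inhibitor Spink2, the stefins Stfa1, Stfa2, Stfa3 and Cstb, and the secreted cystatins Cst3 and Cst6. The genes were taken by symbol from the table that pairs array probes with genes, and the set was drawn up with their responses to the glucocorticoid in view. Of the 8 genes, 6 had a probe, 1 probe each, and all 6 entered the fit of 9416 genes. Stfa3 and Cst6 had no probe in the table used and were not analysed here. RNA came from the epidermis of wild-type B6129 mice aged 7 to 8 weeks. Their back skin was shaved and, 3 days later, received 200 µl of acetone (the vehicle), with or without 2 µg of fluocinolone acetonide (FA), a synthetic glucocorticoid. All mice, controls included, were therefore shaved and exposed to acetone, and skin was taken 24 hours after the single application. Each of the 4 groups (female vehicle, female FA, male vehicle, male FA) held 2 animals with 1 Illumina bead array each, 8 arrays in all. Array female FA 2 had fewer detected probes (32.4% of 25697) than the other 7 arrays (44.5% to 46.9%), and the lowest log2 signal among its detected probes, its floor, was 5.88 against 4.90 to 4.99.

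A serpin traps a serine protease by offering it a reactive loop and then changing shape, so that enzyme and inhibitor are both consumed. Kazal-type inhibitors instead sit in the active site of a serine protease and leave it reversibly. Stefins (inside cells) and secreted cystatins block papain-like cysteine proteases such as the cathepsins. In epidermis these inhibitors limit shedding of the cornified layer and the proteases that immune cells bring in, and glucocorticoids act through a nuclear receptor that binds DNA as a pair.

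The promoter sequences of Serpina3n and of the stefin A genes are shown because Serpina3n had the largest rise and Stfa1 the largest fall among the inhibitors measured. All come from RefSeq on mouse build GRCm38.p6 and read 5′ to 3′ toward the gene. For Serpina3n the stretch lies on the plus strand at chr12:104406458-104406645, ahead of the annotated gene. Its capitals mark AGAACA, the hexamer that makes up each side of the paired element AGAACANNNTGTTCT known to bind the glucocorticoid receptor.
Serpina3n: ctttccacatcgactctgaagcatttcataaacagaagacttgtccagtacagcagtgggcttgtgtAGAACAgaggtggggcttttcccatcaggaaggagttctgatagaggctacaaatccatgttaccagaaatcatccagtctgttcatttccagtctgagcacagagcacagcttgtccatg
The 3 stefin A sequences lie on chromosome 16, at chr16:36277028-36277147 (plus strand) for Stfa1, chr16:36408364-36408483 (minus strand) for Stfa2 and chr16:36455393-36455512 (minus strand) for Stfa3. Their capitals mark a stretch of 13 bases that all 3 share.
Stfa1: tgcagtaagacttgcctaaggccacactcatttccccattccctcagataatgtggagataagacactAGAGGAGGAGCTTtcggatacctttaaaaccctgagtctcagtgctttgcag
Stfa2: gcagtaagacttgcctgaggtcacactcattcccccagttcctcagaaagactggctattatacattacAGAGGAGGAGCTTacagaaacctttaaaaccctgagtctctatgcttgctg
Stfa3: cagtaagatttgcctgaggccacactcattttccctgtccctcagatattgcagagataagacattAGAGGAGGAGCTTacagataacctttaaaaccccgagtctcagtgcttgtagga
Over the 250 bases before the gene start, Stfa1 was identical to Stfa2 at 81.0% of aligned positions and to Stfa3 at 83.5%, and Stfa2 to Stfa3 at 80.4%. The marked stretch AGAGGAGGAGCTT, sought on the gene's own strand only, occurred in 4 of 32851 promoter windows (0.0122%), those of the 3 stefins and of Col10a1. The hexamer AGAACA or its reverse complement TGTTCT was present in 16.1% of the windows, so its single match at Serpina3n and its 2 matches at Cst3 are a description of letters only. It had 0 matches in the windows of Spink2, Stfa1, Stfa2 and Stfa3. The whole element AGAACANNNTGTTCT, which contains both hexamers, was found in 3 windows (0.00913%), none of them a window of Serpina3n, Spink2, Stfa1, Stfa2, Stfa3 or Cst3; Cst6 and Cstb were not searched.

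Serpina3n encodes a secreted serpin that in the mouse inhibits neutrophil elastase, cathepsin G and granzyme B. Its log2 signal (background corrected and quantile normalised) was 5.63 and 5.04 in female vehicle and 9.94 and 9.80 in female FA. In males it was 7.75 and 7.73 in vehicle and 10.62 and 10.32 in FA. All 8 arrays were above background, but the female vehicle readings lay near the floors of their arrays (4.91 and 4.90). Folds against that group therefore depend on the background correction. No FA array overlapped a vehicle array of either sex. The 4 groups formed a ladder from female vehicle through male vehicle and female FA to male FA without any overlap. The share of all genes with 4 groups apart was not counted. FA raised the signal 23.2-fold in females (log2 difference 4.54 ± 0.23, standard error from the fit, n = 2 arrays per group), the largest rise of the 9416 genes. In males the rise was 6.64-fold (2.73 ± 0.23, n = 2 per group), rank 25. Since the gene was chosen for this response, these values describe it and carry no test. Without background correction the differences shrank to 2.59 in females and 2.14 in males.

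**Figure D1:**
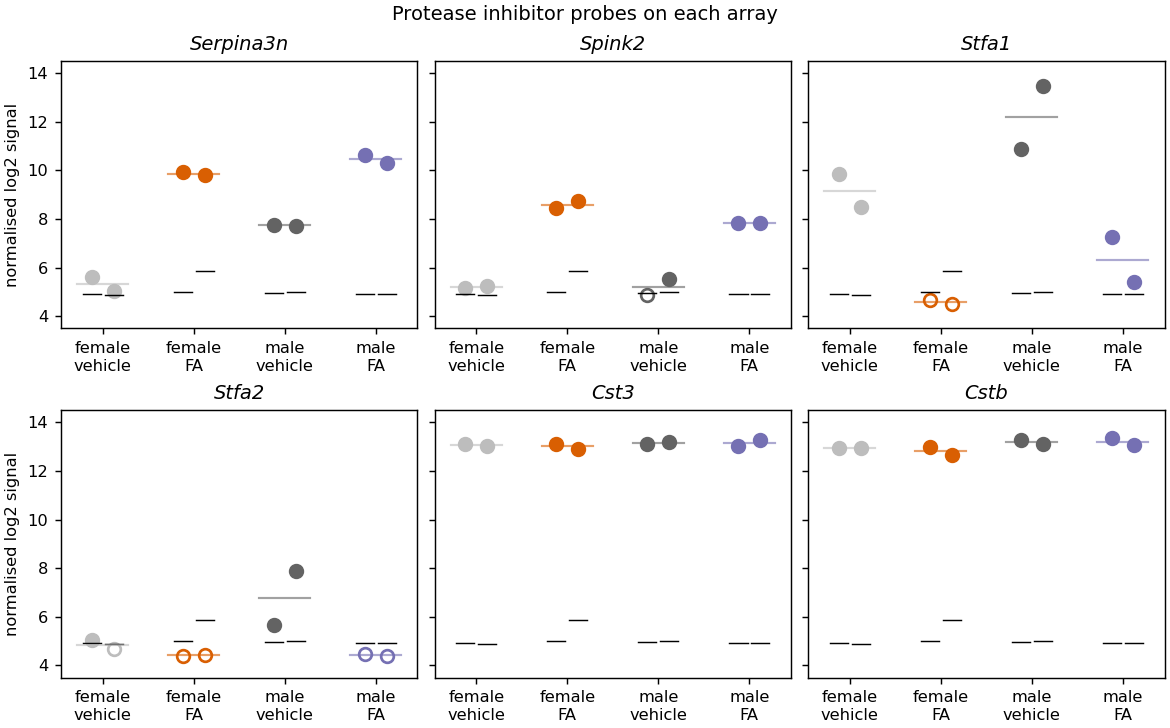
Normalised log2 signal (vertical axis) of the 6 measured inhibitor probes on each of the 8 arrays, grouped by sex and treatment. Filled points are above background and open points are not; the coloured lines are group means (n = 2), and the short black lines each array's lowest signal among detected probes. Serpina3n and Spink2 lie higher on every FA array than on any vehicle array, Stfa1 lower, and Cst3 and Cstb between 12.66 and 13.36 throughout.

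Spink2 encodes a Kazal-type serine protease inhibitor best known from the testis, where it restrains acrosin during sperm formation. Its log2 signal was 5.16 and 5.25 in female vehicle, 8.46 and 8.74 in female FA, 4.89 and 5.54 in male vehicle, and 7.82 and 7.83 in male FA. The vehicle groups of both sexes overlapped near the floor of the arrays, and 1 male vehicle array was not above background. With FA every array was well above that level, and both female arrays were higher than both male ones. The rise was 10.5-fold in females (3.39 ± 0.24, rank 10 of 9416) and 6.09-fold in males (2.61 ± 0.24, rank 28), again without a test. Without background correction it was 1.59 in females and 1.06 in males on the log2 scale.

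Stfa1 encodes a stefin A, a cytosolic inhibitor of cathepsins that in the mouse is made both by stratified epithelia and by neutrophils. Its log2 signal was 9.86 and 8.48 in female vehicle, 10.9 and 13.46 in male vehicle, and 7.26 and 5.39 in male FA. In female FA the readings of 4.66 and 4.52 were not above background. Every FA array lay below every vehicle array, and the 4 groups again did not overlap, in the order female FA, male FA, female vehicle, male vehicle. Replicates of Stfa1 differed far more than those of the other inhibitors except Stfa2: the SD (n = 2) was 0.98 in female vehicle, 1.81 in male vehicle and 1.32 in male FA. The signal was at least 13.3-fold lower with FA in females, computed against the arrays' lowest detected signal. In males it was 57.7-fold lower (-5.85 ± 0.91), the largest fall of 9416 genes. The male value rests on arrays that disagree: it was -7.13 without the first male vehicle array and -4.57 without the second.

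Stfa2, another stefin A gene of the same cluster, was seen on fewer arrays. Its log2 signal was 5.04 and 4.68 in female vehicle, 4.38 and 4.44 in female FA, 5.68 and 7.90 in male vehicle, and 4.47 and 4.37 in male FA. It was above background on both male vehicle arrays and on the first female vehicle array, and on none of the 4 FA arrays. In males the signal was therefore at least 3.64-fold lower with FA. For females no fold is given, because both group means lay below the floor. The male vehicle array with the higher Stfa1 signal was also the one with the higher Stfa2 signal, and the 2 probes had a Pearson correlation of 0.870 over the 8 arrays, which share groups and normalisation. The male difference of Stfa2 (fitted value -2.37 ± 0.60) became -3.48 without the first male vehicle array and -1.26 without the second.

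Cst3 encodes cystatin C, a secreted inhibitor of cathepsins, and its signal moved little. It was 13.12 and 13.05 in female vehicle, 13.12 and 12.90 in female FA, 13.10 and 13.21 in male vehicle, and 13.05 and 13.26 in male FA. All groups overlapped, and the mean FA difference over both sexes was -0.04 ± 0.12 (95% interval -0.32 to 0.24). Cstb encodes stefin B, the other cytosolic stefin, which is made in most tissues. Its signal was 12.95 and 12.93 in female vehicle, 12.98 and 12.66 in female FA, 13.29 and 13.12 in male vehicle, and 13.36 and 13.05 in male FA. FA and vehicle arrays overlapped in both sexes, and the mean FA difference was -0.06 ± 0.14 (95% interval -0.38 to 0.26). The intervals of Cst3 and Cstb leave room for shifts of either sign of those sizes, and they do not reach the changes of Serpina3n, Spink2 and Stfa1.

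Serpina3n, Spink2 and Stfa1 passed the threshold used for all genes (limma, Benjamini-Hochberg adjusted p under 0.05) in the mean FA effect, which 20.8% of the 9416 genes also did. The same 3 of 6 passed in females, against 10.0% of all genes, and in males, against 8.19%. For Stfa1 this was not stable: in females it did not pass without female vehicle 1 (-3.89, limma adjusted p 0.155), without female vehicle 2 (-5.27, 0.0879), with array weights (0.0701) or without background correction (0.0614). In males Stfa1 did not pass without male vehicle 2 (limma adjusted p 0.0580) or male FA 2 (-4.91, 0.0823). Stfa2 did not pass but lay near the threshold, with a limma adjusted p of 0.0557 in the mean FA effect and 0.0577 in males (0.653 in females). On 4 of the 6 probes the FA arrays and the vehicle arrays did not overlap, as on 26.2% of all genes. These shares are given as the background only, since the response to FA led to the choice of genes. Without array female FA 2 the female FA differences were 4.61 for Serpina3n, 3.25 for Spink2 and -4.51 for Stfa1. Keratinocyte markers were present on all arrays: all 8 genes of the list were in the fit, and 7 were above background on every array (Dsg3 on all but female FA 2). With FA, Krt1 (-3.004), Krt5 (-1.16) and Krt14 (-0.61) fell and 0 rose. The summed linear signal of the 8 genes was 154515 to 164590 on vehicle arrays and 136354 to 140305 on FA arrays. That sum follows its brightest genes, such as Krt14 (log2 signal 15.46 on female vehicle 1), and hardly shows the fall of Krt1 (9.32 on that array).

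The level without FA differed between the sexes for Serpina3n. In vehicle its signal was 5.29-fold higher in males than in females (2.40 ± 0.23, 95% interval 1.87 to 2.94, 2 of 2 male arrays above both female arrays), with a limma adjusted p of 0.0170. It was 1 of 7 genes that passed among 9416 (0.0743%), and 1 of the 6 inhibitors. Male and female vehicle arrays did not overlap for 4 of the 6 inhibitors, Cstb (difference 0.26) among them. The share of all genes without such overlap was not counted. The estimate of the Serpina3n sex difference does not depend on that of its mean FA effect, but both use the same spread from the fit. The choice of genes by their FA response can therefore also touch this limma p. The vehicle arrays are also the controls of the FA effect in each sex. The limma call was lost when 1 array was left out in 6 of 8 cases. The adjusted p was 0.0506 without female vehicle 1 (difference 2.70) and 0.202 without female vehicle 2 (2.11). It was 0.158 without male vehicle 1 (2.39), 0.197 without male vehicle 2 (2.42), and 0.0735 without either male FA array (2.40). The female vehicle readings, 5.63 and 5.04, lay near the floors of their arrays, 4.91 and 4.90. Without background correction the sex difference was 0.98 and passed, with a limma adjusted p of 0.0254.

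**Figure D2:**
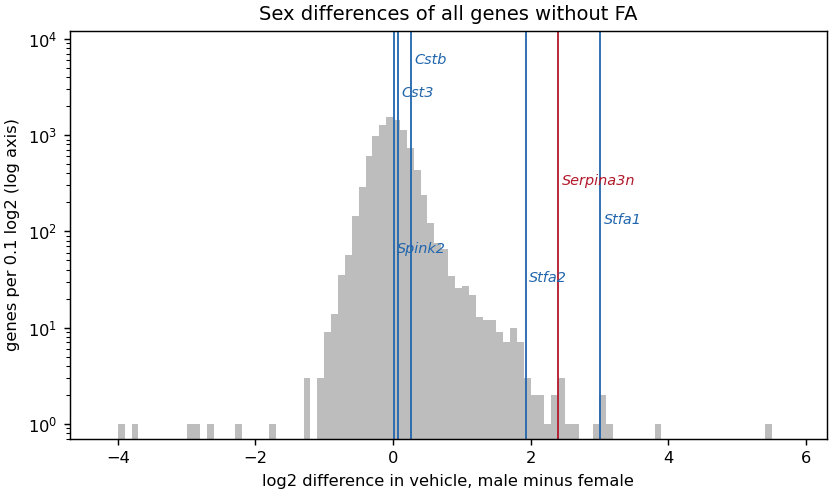
Distribution over 9416 genes of the log2 difference between male and female vehicle arrays (horizontal axis), with the number of genes per bin on a log axis. Vertical lines mark the 6 inhibitors, Serpina3n (red) at 2.40 and Stfa1 at 3.01 far to the right and Spink2 at 0.01 near the centre.

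Markers of some other cell types were also higher in males in the same vehicle arrays. All 7 dermal fibroblast markers were in the fit, and 7 of 7 were higher in males at an unadjusted p under 0.05 while 0 passed after adjustment (median log2 difference 1.80, against -0.02 for all genes, of which 545 of 9416 had such a p). Their summed linear signal was 1175 to 1331 in female vehicle, 3227 to 4801 in male vehicle, 462 to 897 in female FA and 875 to 1671 in male FA. Skeletal muscle markers (5 of 5 in the fit) summed to 1390 to 3329 in female vehicle, 5573 to 6000 in male vehicle, 372 to 895 in female FA and 9512 to 17177 in male FA. Macrophage and mast cell markers (7 of 10 in the fit) summed to 265 to 357 in female vehicle and 487 to 552 in male vehicle. With FA they summed to 308 to 363 in females and 306 to 372 in males. These sums hide moves in both directions. In the mean FA effect 2 of these 7 markers passed as higher and 3 as lower, where 20.8% of all genes passed. For sex in vehicle, 2 of 5 muscle and 2 of 7 macrophage and mast cell markers had an unadjusted limma p under 0.05. None of either list passed after adjustment. Such a p was seen for 0 of 8 Langerhans and dendritic cell, 0 of 5 sebaceous gland, 1 of 8 keratinocyte and 2 of 4 neutrophil markers. The part of these cell types in the Serpina3n difference was not tested. In such tissue samples more cells of a type and more RNA per cell cannot be told apart.

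With FA the gap between the sexes in Serpina3n was smaller, 0.60 ± 0.23 in favour of males (1.51-fold). The FA effect in males minus that in females, the interaction, was accordingly -1.81 ± 0.32. It had an unadjusted limma p of 6.95e-04 and did not pass after adjustment (limma adjusted p 0.497), whereas 0.0212% of all genes did. Without female FA 1 it passed, at -1.74 with a limma adjusted p of 0.0149, and without background correction it was -0.45 with a limma adjusted p of 0.563. The sexes were thus 2.40 apart in Serpina3n without FA and 0.60 apart with it.

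Spink2 had the opposite layout. Its vehicle level differed between the sexes by 0.01 ± 0.24 (limma adjusted p 0.999), and with FA males were 0.77 lower than females. Its interaction was -0.78 ± 0.33 (limma adjusted p 0.731), and without background correction -0.53. Stfa1 was 8.05-fold higher in male than in female vehicle (3.01 ± 0.91), with an unadjusted limma p of 0.0124 and an adjusted p of 0.633. Stfa2 was at least 3.53-fold higher (fitted difference 1.93 ± 0.60, limma adjusted p 0.661). Without male vehicle 1 the Stfa2 difference was 3.04 and passed, with a limma adjusted p of 0.0378, and without male vehicle 2 it was 0.82. The Stfa1 sex difference was likewise 4.29 without male vehicle 1 and 1.73 without male vehicle 2. Cst3 differed between vehicle sexes by 0.07 and Cstb by 0.26 ± 0.19, neither of which passed. In the interaction 0 of the 6 inhibitors passed in limma and 2, Serpina3n and Spink2, had an unadjusted p under 0.05, as did 618 of 9416 genes.

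The stefin A genes lie in a cluster on chromosome 16, in which RefSeq orders 12 protein-coding genes from Csta1 to Stfa3. Only Csta1, Stfa1 and Stfa2 of these were in the fit. Csta1, another stefin A gene, had a log2 signal of 8.31 and 7.86 in female vehicle, 7.99 and 8.06 in female FA, 7.64 and 8.03 in male vehicle, and 7.11 and 7.999 in male FA. Its groups overlapped and its mean FA difference was -0.17 ± 0.22 (limma adjusted p 0.625). Stefin A genes are close copies of each other, probe sequences were not used here, and whether the Stfa1 or Stfa2 probe also reads another copy was not tested. The same holds for Serpina3n, which belongs to a cluster of 10 protein-coding Serpina3 genes on chromosome 12, of which only Serpina3b was also in the fit.

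**Figure D3:**
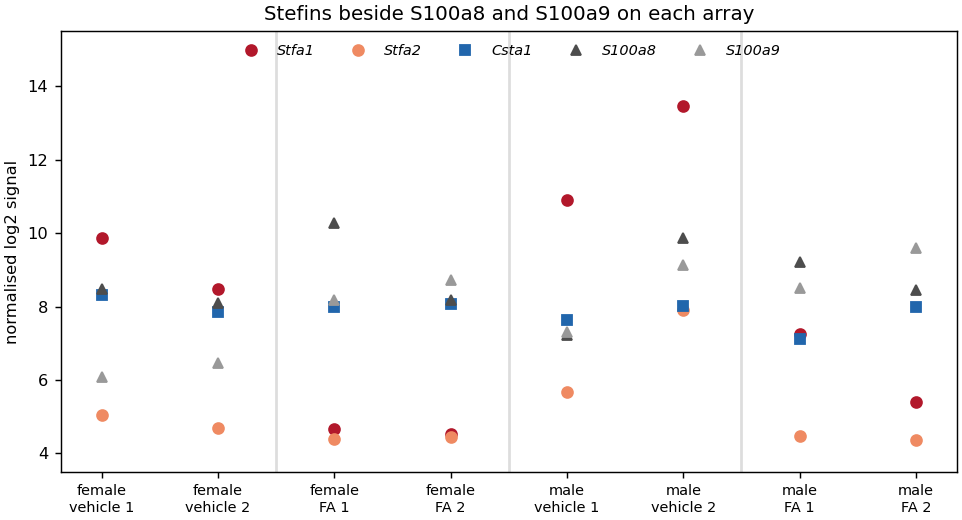
Normalised log2 signal (vertical axis) of the stefin A probes Stfa1, Stfa2 and Csta1 and of the neutrophil and stressed-keratinocyte genes S100a8 and S100a9 on each of the 8 arrays; levels of different probes are not comparable. Stfa1 and Stfa2 are highest on male vehicle 2 and low on the FA arrays, whereas S100a9 lies between 8.17 and 9.59 on the FA arrays.

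Because neutrophils also make stefin A, their markers are given beside it. Of 12 neutrophil markers 4 were in the fit, and the defining gene Elane was detected on fewer than 4 arrays. Their summed linear signal was 427 to 467 in female vehicle, 758 to 1571 in female FA, 411 to 1583 in male vehicle and 1160 to 1291 in male FA. S100a9, a calcium-binding protein of neutrophils that stressed keratinocytes also make, rose with FA (mean 1.498 ± 0.42, limma adjusted p 0.0452). It was 6.08 and 6.47 in female vehicle, 8.17 and 8.72 in female FA, 7.31 and 9.13 in male vehicle, and 8.50 and 9.59 in male FA. Mpo, a neutrophil granule enzyme, was 4.35 and 4.98 in female vehicle, 4.65 and 4.58 in female FA, 6.23 and 6.01 in male vehicle, and 7.45 and 7.11 in male FA. The 4 markers did not move as a block. Within male vehicle the array with more Stfa1 had more S100a8 (9.86 against 7.23) and S100a9, while its Mpo was 6.01 against 6.23. Elane was not above background on either male vehicle array. In female FA neither Mpo nor Elane was above background. Langerhans and dendritic cell markers (8 of 10 in the fit) fell: 7 passed as lower and 1 as higher in the mean FA effect, in which 20.8% of all genes passed. Their summed signal was 13130 to 14830 on vehicle arrays and 2710 to 4327 on FA arrays. Sebaceous gland markers (5 of 6 in the fit) moved too: 3 passed as lower and 0 as higher in the mean FA effect, and their sum was 20537 to 22730 in female vehicle, 5365 to 8873 in female FA, 20126 to 20297 in male vehicle and 11115 to 20072 in male FA. The part of these cells in the inhibitors' values was not tested.

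Genes of the inhibitors' own families, taken from lists of named relatives, moved in both directions. Among 18 other serpins 2 rose and 5 fell in the mean FA effect (median -0.19, against -0.02 for all genes, of which 20.8% passed, 885 higher and 1070 lower). Serpinb6c (1.67, limma adjusted p 0.0130) and Serpinb6a (0.70, limma adjusted p 0.0182), intracellular serpins, rose. Serpina3b, from the same gene cluster as Serpina3n, fell by 1.86 ± 0.37 (limma adjusted p 0.0132). Its signal was 12.15 and 11.69 in female vehicle, 10.44 and 8.64 in female FA, 12.93 and 12.40 in male vehicle, and 11.37 and 11.29 in male FA. The FA arrays of Serpina3b lay below all vehicle arrays, opposite to Serpina3n. Serpinb3a (-1.13), Serpinb11 (-0.98), Serpinb12 (-0.80) and Serpinb1a (-0.46) also fell in the mean of both sexes, with limma adjusted p from 0.00448 to 0.0425. The difference of Serpinb11 was -0.25 in females (limma adjusted p 0.653) and -1.72 in males (0.0242). That of Serpinb12 was -0.13 in females (limma adjusted p 0.741) and -1.48 in males (0.0116). Serpinb3a was above background on 4 arrays and Serpinb1a on 2. No other serpin passed for sex in vehicle: 0 of 18 did in limma, 6 had an unadjusted p under 0.05 (545 of 9416 for all genes), and the median of the 18 was 0.51.

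Of 15 other Kazal, Kunitz and WAP-domain inhibitors 1 rose and 2 fell (median 0.11), a share close to the 20.8% of all genes. Spink1, a Kazal-type trypsin inhibitor of the pancreas, rose by 0.95 (limma adjusted p 0.0115), so it moved the same way as Spink2 with a smaller difference. Wfdc12, a WAP-domain gene, fell by 1.48 (limma adjusted p 0.0167), and Spink4 fell by 1.02 (limma adjusted p 0.0320). Spink4 was not above background on any FA array, and Wfdc12 on neither female FA array, so the sizes of these falls depend on the floor. For Wfdc12 the difference was -0.69 in females and -2.28 in males. Of the 5 other cystatin-superfamily genes 1 passed, Kng1, which encodes kininogen, a plasma protein with cystatin domains (1.07, limma adjusted p 0.0297), again a share close to that of all genes. The remaining cystatin-superfamily genes in the fit, Csta1 among them, did not pass.

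Cysteine and serine protease genes were examined from 2 further lists. Which of them the inhibitors described here act on was not tested. Among 15 cysteine protease genes and relatives 3 rose and 2 fell in the mean FA effect (median 0.18, against -0.02 for all genes, of which 20.8% passed). Lgmn, which encodes legumain, an asparaginyl endopeptidase that cystatin C and cystatin M/E inhibit, rose by 1.13 ± 0.19 (limma adjusted p 0.00742). It was 7.87 and 7.95 in female vehicle, 9.23 and 8.43 in female FA, 7.86 and 8.14 in male vehicle, and 9.45 and 9.22 in male FA. The lysosomal cathepsin genes Ctsf (0.64, limma adjusted p 0.0157) and Ctsb (0.43, limma adjusted p 0.0310) rose as well. Ctsw, a cathepsin gene of cytotoxic lymphocytes (-1.15, limma adjusted p 0.0269), and the calpain small subunit gene Capns1 (-0.62, limma adjusted p 0.0155) fell. Within single sexes Lgmn and Ctsf passed only in males, Ctsw and Capns1 only in females, and Ctsb in neither.

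Among 13 serine protease genes 4 rose and 2 fell in the mean FA effect (median 0.37, against -0.02 for all genes, of which 20.8% passed). Tmprss2, a membrane serine protease known as an androgen target in the human prostate, showed 4.89 and 4.95 in female vehicle, 8.80 and 7.43 in female FA, 4.90 and 4.70 in male vehicle, and 9.17 and 8.81 in male FA. It was 9.19-fold higher with FA in females, where 1 of 2 vehicle arrays was above background, and at least 16.3-fold higher in males, where neither vehicle array was above background (mean of both sexes 3.70 ± 0.28, limma adjusted p 2.42e-04). Htra1 (0.73), Tmprss13 (0.56) and Prss8 (0.44), the last encoding prostasin, a channel-activating protease of the epidermal barrier, rose with limma adjusted p from 0.0125 to 0.0496. None of them passed in either sex alone, and the FA and vehicle arrays of Tmprss13 and Prss8 overlapped. The rise of Prss8 was 0.67 in females and 0.20 in males. Plau, the urokinase plasminogen activator gene, fell by 2.00 ± 0.17 (limma adjusted p 3.81e-04), and Tmprss4 fell by 1.11 (limma adjusted p 0.00455). None of the relatives or proteases in these 5 lists passed in the interaction or in the sex difference in vehicle.

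**Figure D4:**
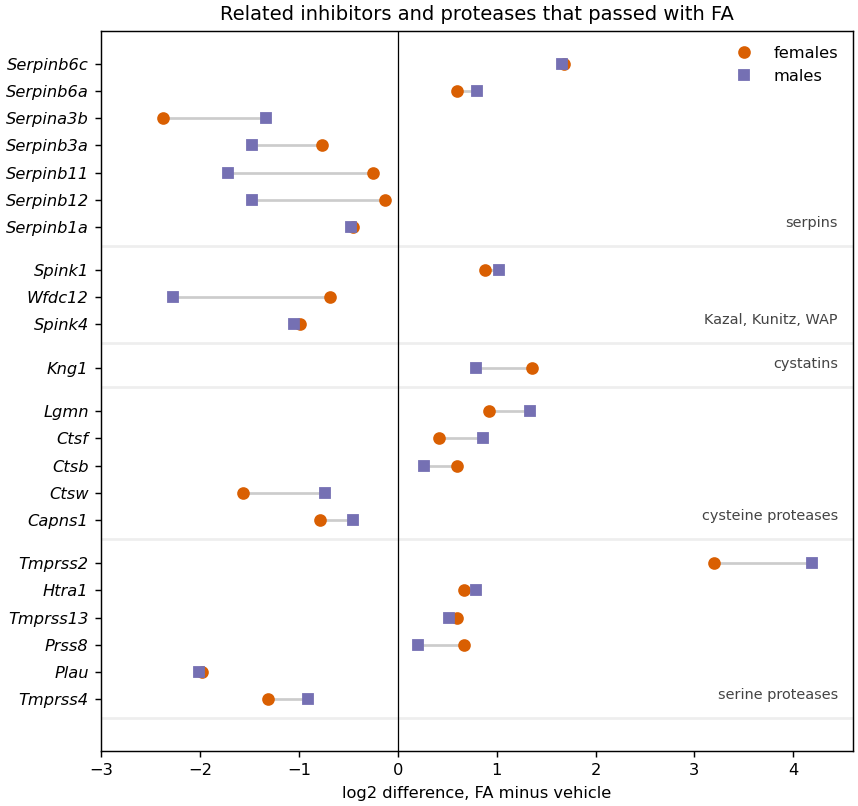
Log2 difference between FA and vehicle (horizontal axis) in females (circles) and males (squares) for the 22 related inhibitor and protease genes that passed in the mean FA effect, by list. Grey lines join the sexes; Tmprss2 lies farthest to the right and Serpina3b and Plau are among the lowest.

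The genes with the most similar profiles were found by Pearson correlation of log2 signals over the 8 arrays, which is a description only, because the arrays fall into 4 groups. For Serpina3n they were Liph (0.987), Zyx (0.984) and Gpnmb (0.983). For Spink2 they were Zfp212 (0.995), Prodh (0.994) and Spsb1 (0.994), and for Stfa1 they were Teddm3 (0.984), Cd81 (0.984) and Cdc42ep2 (0.982). The nearest profiles to Stfa2 were Oasl2 (0.980), Ms4a6d (0.979) and P2ry6 (0.965). Cst3 was nearest to Diaph1 (0.988), Grid2ip (0.974) and Sesn2 (0.961), and Cstb to Gmds (0.964), Elovl5 (0.963) and Hsd17b2 (0.954), although both hardly varied.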

How the data were processed

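The labels' design names 2 animals per group, so each array was taken as a separate animal. The deposited unprocessed table holds an intensity and a detection p-value for 25697 probes per array, per the file headers. The authors' deposited matrix holds log2 values for 13247 probes, and the submitters' processing notes name limma. Recomputing limma neqc (normexp background correction, offset 16, quantile normalisation) from the unprocessed table gave those values to within 5.00e-09, and the matrix holds probes with detection p under 0.05 on at least 2 arrays. Probes with 1 gene symbol (12476; 771 had none) were used, with the probe of highest mean per gene, giving 9416 genes; 12471 probes matched RefSeq by Entrez identifier. The 4 group means were fitted with limma 3.58.1 in R 4.3.3 (lmFit and eBayes, 4 residual and 3.35 prior degrees of freedom), with two-sided tests and Benjamini-Hochberg adjustment over 9416 genes. The fit was tested on simulated data. Where a group was not above background, its fold is a bound against each array's lowest detected signal. The members and the gene lists were chosen with earlier results of these data known. Named relatives are those passing in the mean FA effect, at most 6 per list and direction, and each gene's 3 nearest profiles by correlation. Precision is limited by having 2 arrays per group and by dim signals near background.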

Additional observations from a re-analysis of the deposited data

How the results depend on the processing

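The counts of genes passing moved most with single arrays. Leaving out 1 array gave 1008 to 3585 genes for the mean FA effect (1955 with all arrays), 216 to 3004 in females (944), 208 to 1497 in males (771), 0 to 1135 in the interaction (2) and 2 to 46 for sex in vehicle (7); the Serpina3n sex difference ranged from 2.11 to 2.70, and its adjusted p from 0.00188 to 0.202. Without background correction 1562 genes passed in females, 1326 in males and 14 for sex. Array weights gave 506, 1454 and 23. Restricting to probes detected on all 8 arrays gave 2 for sex. The interaction had 0 genes with median scaling, with probes detected on all 8 arrays, with values raised to the floor and with the replicate block. The labels do not say that replicate numbers pair animals, and deviations of same-numbered arrays correlated between -0.03 and 0.23; with the replicate block the Serpina3n sex difference kept its limma adjusted p under the threshold, at 0.0296. Median scaling moved the median of all genes from -0.04 to 0.16 in females, from -0.01 to -0.10 in males, from 0.02 to -0.21 in the interaction and from -0.02 to 0.13 for sex, and the split in females became 565 higher of 1015 and in males 337 of 798. The Stfa2 difference in females, below the floor in both groups, turned from -0.45 to 0.47 with values raised to the floor and to 0.14 with median scaling. With 1 array left out the Stfa1 interaction ran from -2.55 to 0.010 (without male vehicle 2), that of Cst3 from -0.038 to 0.18, that of Cstb from -0.031 to 0.29, and the Spink2 sex difference from -0.31 to 0.33. With median scaling the interaction was -0.073 for Cst3 and -0.086 for Cstb. The causes were not tested. Without background correction the Stfa1 female difference was -2.21 (limma adjusted p 0.0614). Of 495 values of the 6 inhibitors under the alternatives, 449 kept sign and call, 22 changed sign, 12 lost the call and 12 newly passed. Sign changes not listed above were small values of Cst3 and Cstb. The calls lost were those of Stfa1 in each sex and of the Serpina3n sex difference. Those newly passed were of Stfa2 (mean FA effect, FA in males and sex in vehicle) and of the Serpina3n interaction. A fit with no filter on dim probes was not run, because gene names were used only for probes of the matrix, nor was a slide block, because the headers give no slide.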

Other observations

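The other genes that passed for sex in vehicle were Eif2s3y, a Y-linked gene at least 32.7-fold higher in males, and Ccl4, a chemokine gene at least 2.74-fold higher in males. Akr1c18 (15.2-fold), Akr1c19 (7.82-fold), both encoding aldo-keto reductases, Hamp2 (13.1-fold), a hepcidin gene, and Xist (at least 4.66-fold), the RNA of the inactive X chromosome, were lower in males. Akr1c18 and Akr1c19 were also the 2 genes that passed in the interaction (3.98 with a limma adjusted p of 0.0352, and 2.78 with 0.0451). With FA their group means lay below the floors of the arrays in both sexes. They were 4.47 in females and 4.52 in males for Akr1c18, and 4.61 and 4.42 for Akr1c19. The size of their FA falls, and so of the interaction, was therefore limited by the floor.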
